A study of Mus musculus with 6 samples.

Results

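Satellite cell identity genes are the genes by which the resident stem cells of skeletal muscle are usually recognised. The 8 examined here were Pax7, Pax3, Calcr, Spry1, Cdh15, Vcam1, Heyl and Hey1, taken by symbol from a table of read counts in windows around gene starts, where all 8 had a window among 49366. The assay was ATAC-seq, which reads chromatin accessibility from where a transposase can insert sequencing adapters. The nuclei had been sorted for PCM1, a protein of the nuclear surface of muscle fibres, from male C57BL/6J mice injected at 8 weeks of age with AAV6 vectors. One hindlimb received AAV6:Yap-shRNA, a short hairpin RNA against the Hippo pathway coactivator Yap, and the contralateral muscles received AAV6:LacZ-shRNA, a control hairpin against a bacterial gene. Muscles were collected at 28 days, and 4 gastrocnemius and 4 tibialis anterior muscles were pooled for each of the 3 LacZ-shRNA and 3 Yap-shRNA replicates. All samples had therefore received a virus, and uninjected muscle was not analysed here. Per the study's methods the Yap-shRNA sequence was cloned into a plasmid with a CMV promoter, and its expression by cell type was not measured here. The labels do not tie a replicate to particular animals, and the p-values measure the spread between these pools.

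Satellite cells lie between the muscle fibre and its basement membrane and stay quiescent until injury, when they divide and fuse to repair the fibre. Pax7 and Pax3 are the paired-box transcription factors that specify them. Quiescence is maintained by Notch signalling, whose targets Hey1 and Heyl encode transcriptional repressors, by the calcitonin receptor Calcr, and by Spry1, an inhibitor of receptor tyrosine kinase signalling. Cdh15 (M-cadherin) and Vcam1 encode adhesion proteins of the satellite cell surface. Nuclei inside fibres no longer use the stem cell programme, and the sort for PCM1 is meant to leave mononuclear cells behind. The question was how accessible these genes were in the sorted nuclei, and whether the knockdown moved them.

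The sequences of the Pax7, Spry1 and Cdh15 starts are shown first, because the levels below contrast a start with intermediate signal and no listed peak (Pax7), a start whose bases also belong to another gene's window (Spry1) and a strongly accessible start (Cdh15). They come from RefSeq (GRCm38.p6) and run from 250 bases before to 50 bases after a transcript start. The Pax7 stretch was chr4:139832919-139833218 on the minus strand. The Spry1 stretch was chr3:37639697-37639996 and the Cdh15 stretch chr8:122848124-122848423, both on the plus strand. The RefSeq start of Cdh15 lies downstream of the annotated start on which its window was built (122847966). The Cdh15 stretch does not contain that start, but it lies inside the window (chr8:122846966-122848966). Capitals mark the Sp-type string GGGCGG or its complement CCGCCC.
Pax7: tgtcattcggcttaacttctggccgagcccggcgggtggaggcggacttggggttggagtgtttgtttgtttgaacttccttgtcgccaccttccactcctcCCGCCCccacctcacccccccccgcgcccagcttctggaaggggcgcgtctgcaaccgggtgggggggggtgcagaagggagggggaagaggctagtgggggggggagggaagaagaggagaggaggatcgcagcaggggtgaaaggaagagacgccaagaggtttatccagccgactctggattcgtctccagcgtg
Spry1: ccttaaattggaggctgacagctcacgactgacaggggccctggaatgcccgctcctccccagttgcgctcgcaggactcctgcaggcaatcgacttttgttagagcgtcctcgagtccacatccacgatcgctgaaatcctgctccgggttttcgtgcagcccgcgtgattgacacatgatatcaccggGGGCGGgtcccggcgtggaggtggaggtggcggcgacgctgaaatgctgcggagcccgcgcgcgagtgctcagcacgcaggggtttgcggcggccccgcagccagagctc
Cdh15: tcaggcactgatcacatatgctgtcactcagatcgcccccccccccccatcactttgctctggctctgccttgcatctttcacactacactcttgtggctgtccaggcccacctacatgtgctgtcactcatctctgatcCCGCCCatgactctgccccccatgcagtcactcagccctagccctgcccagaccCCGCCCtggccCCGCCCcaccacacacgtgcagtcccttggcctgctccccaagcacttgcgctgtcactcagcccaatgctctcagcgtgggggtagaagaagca

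The RefSeq table held promoters for 4 of the 8 genes, with 2 entries for Calcr, and Pax3, Vcam1, Heyl and Hey1 had none. The Pax7, Spry1 and Cdh15 stretches were rich in G and C (63.7%, 64.3% and 61.3%), against a median of 52.7% over 32851 promoters. They differed in CpG dinucleotides, with 17 in Pax7, 29 in Spry1 and 7 in Cdh15, where the median promoter held 7. Calcr joined both kinds, with 29 CpG at chr6:3763574-3763873 and 4 at chr6:3764664-3764963. GGGCGG occurred once in the Pax7, Spry1 and first Calcr promoters, 148, 60 and 128 bases before the transcript start, and 3 times in Cdh15, as it does at least once in 35.7% of all promoters. Searched on both strands, the E-box CAGCTG, the RBPJ string TGGGAA and the TEAD string ACATTCC had no match in the 5 entries, while 16.3%, 25.6% and 3.85% of all promoters hold them. These are matches of letters in a fixed stretch, and no binding was measured.

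The libraries held 3326803 to 8964441 counts in windows in LacZ-shRNA and 8622014 to 10319467 in Yap-shRNA, so that the control group carried more counting error. Counts were scaled by library size and TMM factors to CPM, which takes out depth. Because a window joins the bases within 1 kb of any annotated start of its gene, its length differs between genes, and levels of different genes were compared as CPM per kb of window. The 15 windows of a muscle fibre marker list had a median of 23.0 CPM per kb, from 4.10 at the myosin gene Myh1 to 61.0 at the calcium pump gene Atp2a1. The myosin gene Myh2 (5.28), whose window shares no base, stood near the median of windows without a peak or shared bases (4.29). The Myh1 window shares 1183 of its 2353 bases with another gene, so its level cannot be set against that median. The deposited peak list was not a complete map of open starts, as 36 of the 391 highest windows without shared bases (9.21%) had no listed peak, the Atp2a1 window among them. Absence from the peak list was therefore not read as closed chromatin, and the level is given for every gene.

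Across the 6 samples the 8 genes ran from the highest to the lowest parts of the range of all windows. Cdh15 was highest, at 19.9 ± 2.13 CPM per kb (SD, n = 6 here and for the levels that follow), the 98.8th percentile of all windows. Hey1 followed with 12.2 ± 1.79, then Pax7 with 7.90 ± 1.07 and Heyl with 7.33 ± 0.960. Pax3 held 5.88 ± 0.572 and Calcr 4.22 ± 0.761, near the median of all windows at 4.45. Vcam1, at 2.08 ± 0.212, and Spry1, at 0.896 ± 0.407, lay at the 10.7th and 2.05th percentiles. The adhesion genes Cdh15 and Vcam1 thus stood near opposite ends of the order.

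Neighbours in that order were compared within samples. The order came from the same 6 samples, so the pairs and their direction were picked from the tested data. The test was an exact two-sided permutation test that flips the sign of the log2 difference in each of the 6 samples. It cannot give a p under 0.03125. Cdh15 exceeded Hey1 by 0.71 on the log2 scale and Hey1 exceeded Pax7 by 0.63, each in 6 of 6 samples (exact permutation adjusted p 0.0437 over 7 pairs). Heyl over Pax3 (0.31), Calcr over Vcam1 (1.01) and Vcam1 over Spry1 (1.32) also held in all samples at the same adjusted p. The last of these rests on shared bases. Per kb of unshared window, Vcam1 held 3.06 and Spry1 2.70 CPM, with a log2 difference of 0.28, Vcam1 higher in 5 of 6 samples and an exact permutation adjusted p of 0.312. Counted in overlapping peaks, with CPM scaled to the counts in peaks, Spry1 stood above Vcam1 (17.9 against 0 per kb of window). On the unshared scale Calcr exceeded Vcam1 in 5 of 6 samples, and the differences among Cdh15, Hey1, Pax7, Heyl and Pax3 were as given. The smallest exact permutation adjusted p over the 7 pairs was 0.0729, so that no pair passed. For Cdh15 over Hey1, Hey1 over Pax7 and Heyl over Pax3 the unadjusted exact permutation p stayed at 0.03125. Their adjusted p rose only because fewer pairs reached that lowest value, so passing or not says little about these pairs. Pax7 and Heyl did not differ beyond their spread, with a difference of 0.11, Pax7 higher in 4 of 6 samples and an exact permutation adjusted p of 0.188. Pax3 exceeded Calcr by 0.49 in 5 of 6 samples, without passing the threshold (exact permutation adjusted p 0.0729).

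**Figure D1:**
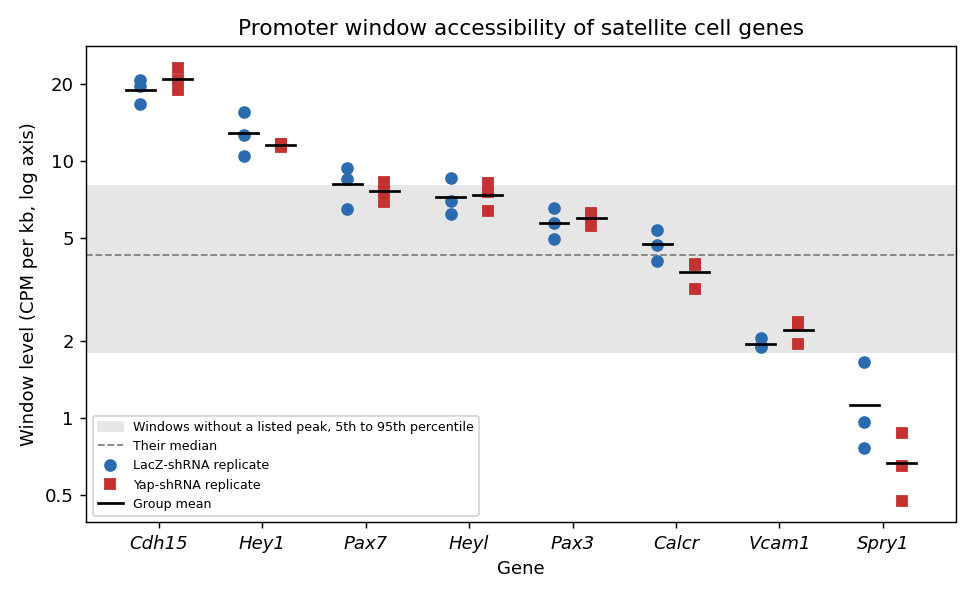
Level of each gene's window in CPM per kb (log axis) for the 3 LacZ-shRNA (circles) and 3 Yap-shRNA replicates (squares), with group means as bars; the grey band spans the 5th to 95th percentile (1.81 to 8.01) of windows that share no base with another gene and overlap no listed peak, and the dashed line is their median, 4.29. All points of Cdh15 and Hey1 lie above the band and all of Spry1 below it. Single Pax7 and Heyl replicates and the Pax7 LacZ-shRNA mean (8.16) also lie above its upper edge, and only the Calcr groups are separate.

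The paired-box factors stood at intermediate levels. Pax7 (ENSMUSG00000028736, chr4:139737062-139833528, minus strand, GRCm38) had a window of 2522 bp that shared no base with another gene and overlapped no listed peak. It held 16.5, 23.7 and 21.5 CPM in LacZ-shRNA replicates 1 to 3 and 17.4, 19.4 and 21.0 CPM in those of Yap-shRNA. The Yap-shRNA samples all lay inside the range of the controls. On the log2 scale the change, Yap-shRNA against LacZ-shRNA as everywhere below, was -0.08 (SE 0.16, 95% interval -0.41 to 0.24, edgeR adjusted p 0.980).

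The Pax7 level was 1.84 times the median of 31605 windows without a listed peak and without shared bases, and above 94.5% of them. Among 7417 such windows with a peak it stood above 37.2%. Its window had 57.9% G and C and an observed to expected CpG ratio of 0.639. Protein-coding windows of like composition (G and C of at least 55%, CpG ratio of at least 0.6, no shared bases) had a median of 7.74 CPM per kb in 277 cases without a peak and of 15.0 in 570 with one. The Pax7 window thus lay close to the middle of CpG-rich starts without a peak, and under the lower quartile, 10.9, of those with one. Pax2, a paralog that acts in kidney and is not part of the muscle programme, held 7.87 CPM per kb, and the log2 difference from Pax7 was 0.00 (exact permutation adjusted p 0.969 over 9 pairs of genes). The 9 pairs were chosen after the levels were seen. Each pair at the lowest possible p, 0.03125, has the adjusted p 0.0469, a value set by how many of the chosen pairs reached that p. Myod1, the myogenic determination factor, held 35.5 CPM per kb, above Pax7 by 2.17 on the log2 scale in 6 of 6 samples (exact permutation adjusted p 0.0469). Myf5, the other determination factor that satellite cells are known for, held 6.44 and was below Pax7 in all samples by 0.29 (exact permutation adjusted p 0.0469).

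Pax3 (ENSMUSG00000004872, chr1:78101267-78197134, minus strand) marks embryonic muscle progenitors and the satellite cells of some muscles. Its window of 2297 bp held 11.4, 13.1 and 15.0 CPM in LacZ-shRNA and 12.8, 14.4 and 14.1 CPM in Yap-shRNA, with overlapping groups and a log2 change of 0.05 (SE 0.17, 95% interval -0.30 to 0.40, edgeR adjusted p 0.988). No listed peak overlapped the window, and it stood at the 79.8th percentile of windows without one.

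Calcr was the single gene of the 8 whose groups did not overlap. The gene (ENSMUSG00000023964, chr6:3685680-3764714, minus strand) has starts in 2 separate stretches that make up a window of 5086 bp. The window held 27.5, 20.8 and 23.9 CPM in LacZ-shRNA and 20.3, 20.1 and 16.1 CPM in Yap-shRNA. Each control sample lay above each knockdown sample, though LacZ-shRNA replicate 2 and Yap-shRNA replicate 1 were nearly equal. The means were 24.1 ± 3.34 and 18.8 ± 2.36 CPM (SD, n = 3 per group), a log2 change of -0.37 (SE 0.16, 95% interval -0.68 to -0.05). It did not pass the test over all windows (edgeR adjusted p 0.946). The unadjusted edgeR p was 0.0242, where 4.90% of all windows had one under 0.05 (3.01% in this direction), and 10.1% of windows had groups that did not overlap. Its paralog Calcrl, the receptor subunit for calcitonin gene-related peptide, held 3.47 CPM per kb with overlapping groups.

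Spry1 (ENSMUSG00000037211, chr3:37639947-37644598, plus strand) had the lowest window, yet a strong peak lay over its start. The window of 2134 bp held 9, 11 and 18 reads in LacZ-shRNA and 10, 20 and 12 in Yap-shRNA, which is 1.63, 3.52 and 2.05 CPM against 1.02, 1.86 and 1.39 CPM. Of its bases, 1425 also belong to the window of Gm42922, an unconfirmed transcript on the other strand. The listed peak at chr3:37639640-37641269 lay with 1441 of its 1630 bases inside the Spry1 window and held 1267 reads over the 6 samples, while the Spry1 window held 80 and the Gm42922 window 136. Across the table, 99.98% of 5736 unshared windows held at least 0.95 of the reads of the peaks inside them, against 49.2% of 3964 windows that share bases. Per kb of its unshared bases, the Spry1 window held 2.70 CPM.

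The peak held the reads at the Spry1 start that the window lacked. There were 35.3, 39.5 and 43.6 CPM in LacZ-shRNA and 36.6, 40.2 and 34.1 CPM in Yap-shRNA, and the groups overlapped. Its level was 23.4 CPM per kb of peak, the 65.3th percentile of all peaks, and its log2 change was -0.11 (SE 0.13, 95% interval -0.37 to 0.16, edgeR adjusted p 0.904). The window itself gave -0.63 (SE 0.40, 95% interval -1.44 to 0.18, edgeR adjusted p 0.946), with an interval wide enough to hold the value of the peak. Since the same bases form the start of Gm42922, the peak cannot be assigned to Spry1 alone.

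**Figure D2:**
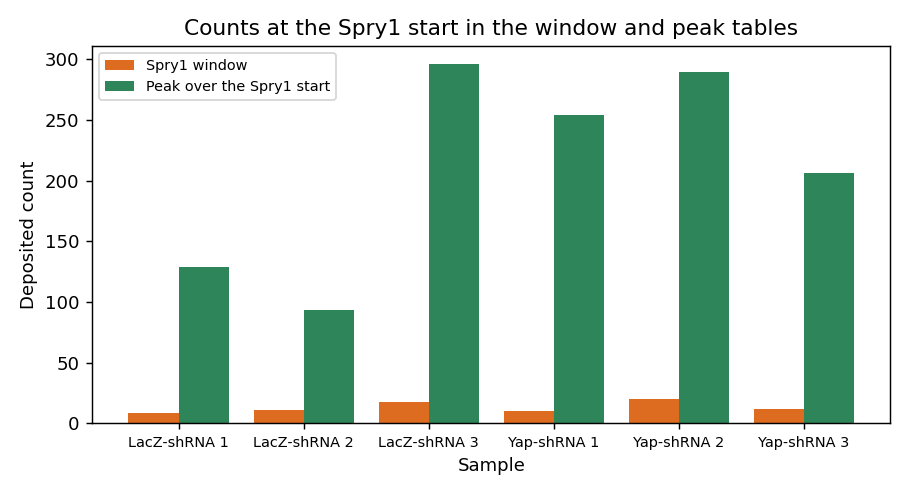
Deposited counts in each of the 6 samples for the Spry1 window (orange) and for the peak over the Spry1 start (green). The window held 9 to 20 reads per sample and the peak 93 to 296, although 1441 of the 1630 peak bases lie inside the window.

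Cdh15, encoding the cadherin that joins satellite cells to the fibre, had the most accessible start. The gene (ENSMUSG00000031962, chr8:122847966-122867397, plus strand) has a single start in the annotation used for windows, upstream of the RefSeq start shown above. Its window of 2001 bp shared no base with another gene. The window held 33.5, 39.1 and 41.2 CPM in LacZ-shRNA and 37.7, 41.3 and 46.2 CPM in Yap-shRNA. The ranges overlapped, with means of 37.9 ± 4.01 and 41.8 ± 4.30 CPM (SD, n = 3 per group), and the log2 change was 0.13 (SE 0.14, 95% interval -0.15 to 0.42, edgeR adjusted p 0.957). Per kb, Cdh15 was above 93.2% of the windows with a listed peak and 4.64 times the median of those without. It reached this level with a CpG ratio of only 0.227. Cdh2 (N-cadherin), a cadherin best known in nerve and heart, held 5.30 CPM per kb, below Cdh15 by 1.92 on the log2 scale in 6 of 6 samples (exact permutation adjusted p 0.0469). Myod1 exceeded Cdh15 by 0.83 in all samples at the same adjusted p.

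Vcam1 (ENSMUSG00000027962, chr3:116109949-116129688, minus strand), an adhesion molecule also found on activated endothelium, had a weak signal. Its window covers 4762 bp in 2 stretches, of which 1524 bp belong also to Gm43109, an antisense transcript. It held 9.04, 8.97 and 9.80 CPM in LacZ-shRNA and 9.27, 11.3 and 11.01 CPM in Yap-shRNA. The groups overlapped in that Yap-shRNA replicate 1 lay below LacZ-shRNA replicate 3, and the log2 change was 0.17 (SE 0.19, 95% interval -0.22 to 0.56, edgeR adjusted p 0.959). Per unshared kb the level was 3.06 CPM, still under the median of windows without a listed peak (4.29).

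The Notch targets stood above Pax3 and below Cdh15. Hey1 (ENSMUSG00000040289, chr3:8663359-8667256, minus strand) held 27.5, 41.0 and 33.2 CPM in LacZ-shRNA and 30.6, 29.8 and 30.7 CPM in Yap-shRNA in a window of 2632 bp. The Yap-shRNA samples were nearly equal and lay inside the wide range of the controls, for a log2 change of -0.14 (SE 0.15, 95% interval -0.43 to 0.16, edgeR adjusted p 0.957) that was -0.01 without LacZ-shRNA replicate 2 and -0.25 without LacZ-shRNA replicate 1. Heyl (ENSMUSG00000032744, chr4:123233556-123249875, plus strand) held 26.8, 30.1 and 36.9 CPM in LacZ-shRNA and 27.4, 35.2 and 32.6 CPM in Yap-shRNA, in 2 stretches of 4299 bp together. Its log2 change was 0.00 (SE 0.15, 95% interval -0.29 to 0.30, edgeR adjusted p 0.999).

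Related repressors of the same family were of the same order. Hey2 held 10.97 CPM per kb, which was above Heyl by 0.58 on the log2 scale in 6 of 6 samples (exact permutation adjusted p 0.0469). Hey1 was above Hey2 by 0.15 in 5 of 6 samples, without passing (exact permutation adjusted p 0.0703). Hes1, a Notch target active in many tissues, held 16.98 CPM per kb and exceeded Hey1 by 0.48 in all samples (exact permutation adjusted p 0.0469).

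Of the 8 windows, 0 passed an edgeR adjusted p under 0.05, against 11 of all 49366 windows (0.0223%). At an unadjusted p under 0.05 there was 1 of 8 lower (Calcr), beside 3.01% of all windows, and 0 of 8 higher, beside 1.90%. DESeq2 gave an adjusted p to 3 of the 8 (Cdh15, Heyl and Hey1) and called 0 of these. The log2 changes were positive for 4 genes and negative for 4, with a median of -0.04, beside -0.01 over all windows. The interval of each gene gives the changes that its data leave possible and is not a limit of detection. In simulations from these libraries the test recovered 9% of changes of 0.5 on the log2 scale. The summed level of the 8 windows ran from 153.8 to 183.6 CPM in LacZ-shRNA and from 156.4 to 173.4 CPM in Yap-shRNA.

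**Figure D3:**
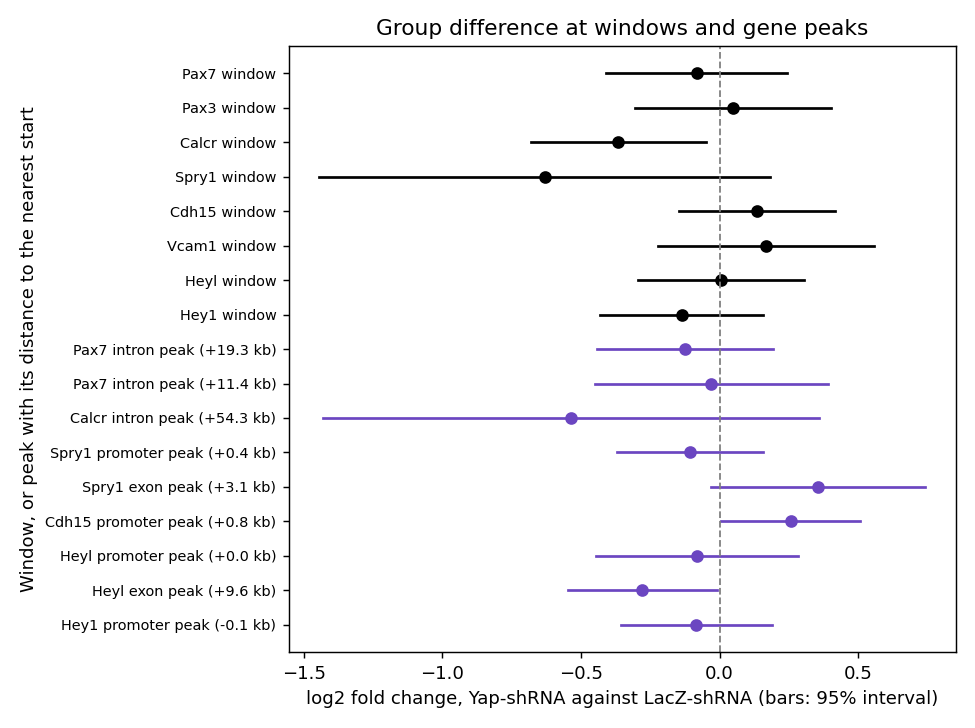
The log2 change (Yap-shRNA against LacZ-shRNA) with its 95% interval for the 8 windows (black) and for the peaks that overlap a gene or its promoter (purple, with the distance in kb from the peak's middle to the nearest annotated start). The intervals of the Calcr window, the Cdh15 promoter peak and the Heyl exon peak lie to one side of 0, and none of the adjusted p-values passed 0.05.

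Peaks were examined as a second readout, because distal elements lie outside the windows. Of 36097 listed peaks, 19 overlapped one of the 8 genes or lay within 50 kb of it, and 4 of these lay within 1 kb of the start of another gene, the Spry1 promoter peak among them. The count per gene ran from 0 at Vcam1 to 6 at Heyl, beside a median of 3 over 20540 protein-coding genes, of which 13.3% had 0. None of the 19 passed the test over all peaks (0.618% of all peaks did), with a lowest edgeR adjusted p of 0.535. An unadjusted p under 0.05 was reached by 2 of the 19, where 8.90% of all peaks did, and DESeq2 called 0 of the 14 to which it gave an adjusted p. In 3 of them the groups did not overlap, beside 13.3% of all peaks.

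**Figure D4:**
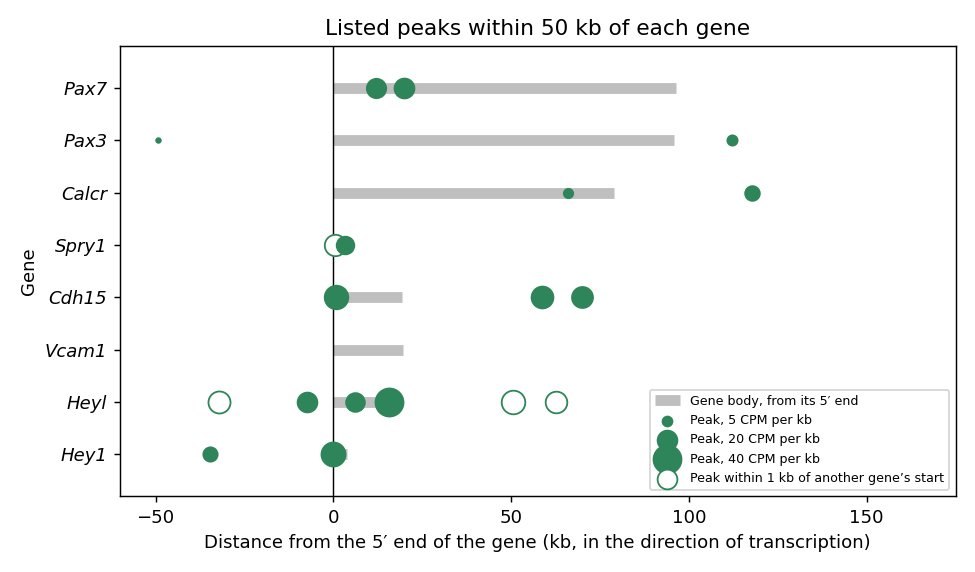
Listed peaks by the distance of their middle from the 5′ end of each gene (kb, in the direction of transcription), with circle area for the level in CPM per kb of peak and grey bars for the gene body. Pax7 has its 2 peaks inside the gene and none at the start, Vcam1 has 0, and open circles mark peaks within 1 kb of the start of another gene.

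Pax7 had no peak at its start and 2 in an intron, both outside exons. The middle 300 bases of each are shown on the plus strand of GRCm38, because they are the listed accessible elements of the gene that defines satellite cells. The distal peak, chr4:139813174-139814178, lay 19331 bp downstream of the nearest start (shown: chr4:139813527-139813826), and the proximal one, chr4:139821349-139821959, lay 11353 bp downstream (shown: chr4:139821505-139821804). Capitals mark TGGGAA in the distal peak and GGGCGG, as its complement CCGCCC, in the proximal peak.
Pax7 distal intron peak: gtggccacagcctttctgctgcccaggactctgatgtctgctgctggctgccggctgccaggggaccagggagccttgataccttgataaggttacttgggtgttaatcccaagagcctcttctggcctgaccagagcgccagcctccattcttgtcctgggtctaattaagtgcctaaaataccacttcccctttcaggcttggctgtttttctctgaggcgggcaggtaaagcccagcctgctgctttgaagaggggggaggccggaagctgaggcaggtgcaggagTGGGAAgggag
Pax7 proximal intron peak: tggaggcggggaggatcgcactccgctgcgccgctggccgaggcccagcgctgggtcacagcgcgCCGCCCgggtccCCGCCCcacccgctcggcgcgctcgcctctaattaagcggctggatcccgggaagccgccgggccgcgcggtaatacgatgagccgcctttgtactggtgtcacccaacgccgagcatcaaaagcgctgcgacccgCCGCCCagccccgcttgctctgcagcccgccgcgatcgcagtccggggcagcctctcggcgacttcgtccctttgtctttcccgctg

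The Pax7 elements differed in composition and were alike in level. The distal stretch had 4 CpG dinucleotides and 57.7% G and C, with 1 match to TGGGAA, which 19.4% of peak centres hold. The proximal stretch had 42 CpG and 71.7% G and C, with 3 matches to GGGCGG, which 27.0% of peak centres hold. The distal peak held 22.7, 19.1 and 21.5 CPM in LacZ-shRNA and 20.9, 19.3 and 18.4 CPM in Yap-shRNA, and the proximal peak held 10.9, 9.34 and 14.4 CPM against 13.4, 11.8 and 10.3 CPM. Groups overlapped in both. Per kb of peak the levels were 20.2 and 19.1 CPM, the 50.7th and 45.7th percentiles of all peaks. The log2 changes were -0.12 (SE 0.16, edgeR adjusted p 0.908) and -0.03 (SE 0.21, edgeR adjusted p 0.990).

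The Cdh15 promoter peak was the highest of the peaks at the starts of the 8 genes by CPM, and its groups did not overlap. The peak, chr8:122847780-122849657, overlaps the first exon, and Gm20388 is annotated over it as well. It held 45.5, 50.1 and 50.1 CPM in LacZ-shRNA and 52.0, 58.1 and 64.2 CPM in Yap-shRNA. Each Yap-shRNA sample lay above all control samples. The means were 48.6 ± 2.68 and 58.1 ± 6.11 CPM (SD, n = 3 per group), a log2 change of 0.26 (SE 0.12, 95% interval 0.00 to 0.51), with an unadjusted edgeR p of 0.0462, where 8.90% of all peaks had one under 0.05 (3.59% in this direction). It did not pass over all peaks (edgeR adjusted p 0.549), and it was 0.16 without Yap-shRNA replicate 3 and 0.40 with library size alone. The Cdh15 window, which shares 1187 bases with this peak, had overlapping groups.

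By level per kb, Heyl had the strongest of the 19 peaks. This peak, chr4:123248851-123249836, overlaps an exon at the 3′ end of Heyl, 9586 bp from the nearest start, and its 40.1 CPM per kb of peak lay above 95.6% of all peaks. It held 37.0, 42.9 and 49.5 CPM in LacZ-shRNA and 39.6, 35.2 and 33.1 CPM in Yap-shRNA. Yap-shRNA replicate 1 lay above LacZ-shRNA replicate 1, so the groups overlapped, with means of 43.1 ± 6.27 and 35.9 ± 3.32 CPM (SD, n = 3 per group). Between groups the log2 change was -0.28 (SE 0.13, 95% interval -0.55 to -0.01, unadjusted edgeR p 0.0418 where 5.31% of all peaks had one under 0.05 in this direction, edgeR adjusted p 0.535). Without LacZ-shRNA replicate 3 it was -0.14, as with library size alone. The peak at an internal Heyl start, chr4:123239343-123240211, gave -0.08 (SE 0.18, edgeR adjusted p 0.960). A peak 7035 bp upstream of the gene gave 0.20 (SE 0.17, edgeR adjusted p 0.824), and the remaining 3 lay at the starts of Nt5c1a and Pabpc4.

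At Hey1 the promoter peak, chr3:8666718-8667915, held 32.3, 44.2 and 34.0 CPM in LacZ-shRNA and 34.6, 34.0 and 33.6 CPM in Yap-shRNA. As in the window, LacZ-shRNA replicate 2 stood above the other 5 samples, and the log2 change was -0.08 (SE 0.14, edgeR adjusted p 0.937). A second Spry1 peak over an exon, chr3:37642724-37643601, held 9.86, 14.9 and 12.4 CPM in LacZ-shRNA and 14.4, 16.1 and 16.2 CPM in Yap-shRNA, with a log2 change of 0.36 (SE 0.19, edgeR adjusted p 0.618). It pointed the other way from the peak at the Spry1 start, and the difference between the peaks was not tested.

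The elements near Calcr and Pax3 were weak. The Calcr intron peak, chr6:3698446-3698974, held 3.29, 3.40 and 1.91 CPM in LacZ-shRNA and 1.58, 1.39 and 2.65 CPM in Yap-shRNA, with 8 to 16 reads per sample and a log2 change of -0.53 (SE 0.44, edgeR adjusted p 0.823). A Calcr flank peak 38445 bp from the gene gave 0.25 (SE 0.34, edgeR adjusted p 0.919) with groups that did not overlap. For Pax3, the peak 15927 bp beyond its 3′ end gave -0.53 (SE 0.37, edgeR adjusted p 0.760), also without overlap. The peak 48308 bp upstream gave 0.75 (SE 0.46, edgeR adjusted p 0.6995), on 4 to 20 reads per sample. Counting error is large at these depths. The 2 Cdh15 flank peaks, which lie in Ankrd11, gave 0.07 and 0.01 (SE 0.14 and 0.15), and the Hey1 flank peak 34282 bp from the gene gave -0.06 (SE 0.31), all with overlapping groups.

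Other genes of satellite cells gave the setting for these levels. A list of 22 further satellite cell genes had a median window level of 7.31 CPM per kb, beside 6.60 for the 8 genes, and 14 of the 22 windows held a listed peak, against 4 of the 8. The highest were Myod1 at 35.5, the intermediate filament gene Des at 29.7, the dystroglycan gene Dag1 at 28.1 and the Wnt receptor gene Fzd7 at 27.7 CPM per kb, of which Des and Dag1 also serve the fibre. Cxcr4, a chemokine receptor gene, and Itga7, an integrin gene, were without a peak at 7.23 and 7.37. None of the 22 passed the test, beside 0.0223% of all windows, and 0 reached an unadjusted edgeR p under 0.05, beside 4.90%. The smallest p-values belonged to Foxo3 (log2 change -0.26, SE 0.14) and Cxcr4 (-0.31, SE 0.18) among negative values and to Fgfr4 (0.20, SE 0.15) and Sdc3 (0.13, SE 0.13) among positive ones. Sox8 was lowest at 0.690 CPM per kb, in a window whose bases were shared with another gene.

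Notch pathway genes, fixed as a list of 30 ligands, receptors, processing enzymes, cofactors, targets and relatives of targets, had a median of 7.99 CPM per kb, and 22 of the 30 windows held a peak. The Hes family gene Hes6 was highest at 21.5, the ligand gene Jag2 held 15.6, and the receptor genes Notch2, Notch1 and Notch3 held 12.4, 7.51 and 6.68. Rbpj, the DNA-binding partner of the Notch intracellular domain, held 7.99. In the pathway 0 of 30 passed, beside 0.0223% of all windows, and 0 reached an unadjusted edgeR p under 0.05, beside 4.90%. Of the 30, 18 were higher and 12 lower in Yap-shRNA, where 47.3% of all windows were higher, and the median log2 change was 0.03. The smallest p-values were those of the ligand gene Jag1 (-0.25, SE 0.13) and of Notch3 (0.24, SE 0.14). The enzyme gene Rfng was lowest at 0.834, in a window with shared bases.

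Among 16 paralogs of the 8 genes the median was 5.41 CPM per kb and 4 windows held a peak. Of the other Pax genes measured, Pax2 was highest at 7.87 and Pax1 lowest at 4.55. The windows of Pax1, Pax5, Pax6 and Pax9 share bases with other genes, so the lower end of this range is uncertain. Those of Pax4, Pax8 and Pax2, without shared bases, held 5.31, 5.98 and 7.87. Pax3 lay inside and Pax7 just above the range of these family members used mainly in other organs. None of the 16 passed, beside 0.0223% of all windows. An unadjusted edgeR p under 0.05 was reached by 1 lower and 1 higher, beside 3.01% and 1.90% of all windows. Pax9, a factor of the pharynx and teeth, reached an unadjusted edgeR p of 0.0110 with a log2 change of -0.40 (SE 0.15), and the adhesion gene Icam1 reached 0.0312 with 0.37 (SE 0.16). Spry2, a paralog of Spry1 in an unshared window, held 16.2 CPM per kb with a log2 change of -0.27 (SE 0.15) and overlapping groups. Spry3 was lowest at 1.17, but its window lies on a scaffold outside the assembled chromosomes, and the effect of that on its count was not tested.

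**Figure D5:**
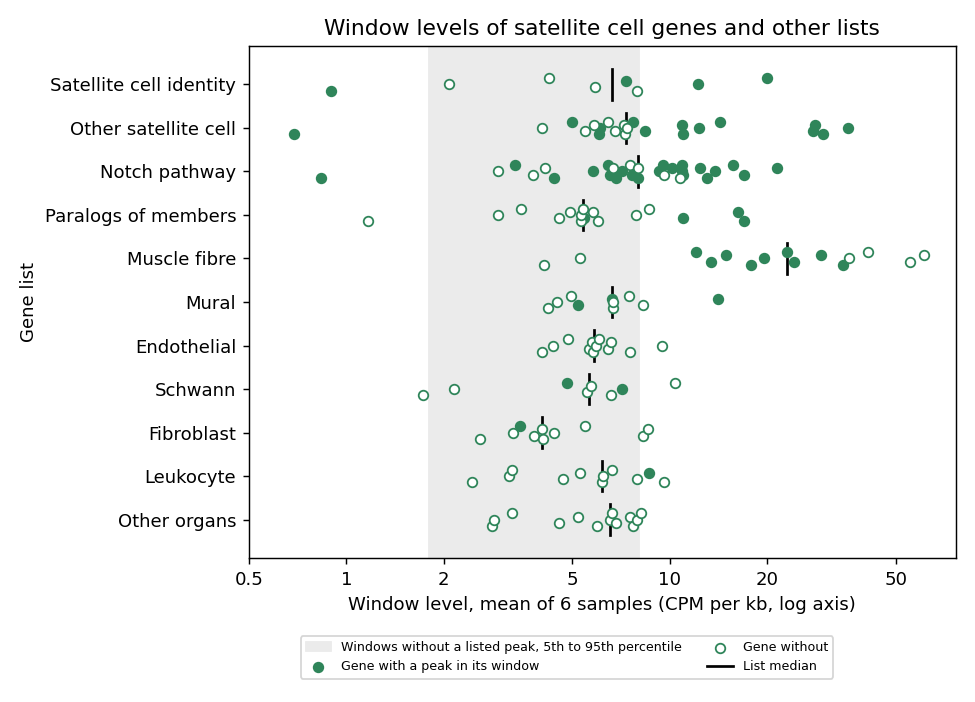
Mean window level over 6 samples (CPM per kb, log axis) for each gene of the satellite cell, Notch, paralog and marker lists, filled where the window overlaps a listed peak, with list medians as black bars and the grey band as in the plot of levels by gene. The fibre list has the highest median, 23.0. The median of the satellite cell list, 6.60 with the shared windows of Spry1 and Vcam1 included, lies among those of lists for cells and organs other than muscle.

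Markers of other cell types were read in the same way. Medians were 5.84 CPM per kb for 12 endothelial genes, 6.64 for 10 mural, 4.04 for 10 fibroblast, 6.15 for 11 leukocyte and 5.63 for 8 Schwann cell genes, and 6.55 for 13 genes of liver, pancreas, brain and other organs. The median of the 8 satellite cell genes (6.60) lay close to these, but it includes Spry1 and Vcam1, whose windows share bases. A listed peak lay in 4 of the 8 windows, beside 26.3% of all windows. The other lists had 0 of 12 (endothelial), 3 of 10 (mural), 1 of 10 (fibroblast), 1 of 11 (leukocyte), 2 of 8 (Schwann cell) and 0 of 13 (other organs). No window could be at 0 after the removal of windows with a mean count under 10. The highest of these lists were Cldn5 (9.45), Abcc9 (14.04), Col1a1 (8.54), Cd68 (9.58), Pmp22 (10.4) and Apoa1 (8.13), and the lowest Emcn (4.03), Acta2 (4.20), Col3a1 (2.58), Cx3cr1 (2.44), Cdh19 (1.72) and Alb (2.82). Of these lowest windows, Cx3cr1 shares 2001 of its 3597 bases and Col3a1 1975 of its 9679 with other genes. In the fibroblast list only 4 of the 10 windows share no base, which limits the comparison of its median. In pooled nuclei, a gene open in few nuclei, a gene weakly open in many, and insertions common to starts of its composition cannot be told apart, which holds for Pax7 in particular. Summed fibroblast markers ran from 266.6 to 299.8 CPM in LacZ-shRNA and from 298.6 to 348.3 CPM in Yap-shRNA, with 2 of 10 at an unadjusted edgeR p under 0.05 (Col1a1 and Col3a1, both higher, beside 1.90% of all windows). Summed leukocyte markers ran from 207.0 to 251.2 CPM and from 247.8 to 268.0 CPM, with 1 of 11 (Csf1r, higher). Endothelial markers had 2 of 12, Kdr and Tie1, both lower (3.01% of all windows), and mural, Schwann cell, fibre and other-organ markers had 0. None of these windows passed over all windows, and the part of other cell types in the values of Calcr and Cdh15 was not tested.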

How the data were processed

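ATAC-seq libraries of sorted PCM1-positive nuclei were sequenced on a NovaSeq instrument. Per the labels and the study's methods, the authors aligned paired reads to GRCm38 with BWA 0.7.17, used SAMtools 1.8 to drop duplicates and MACS 1.4.2-1 to call peaks, kept those seen in more than 1 sample, and obtained counts from featureCounts 1.5.0. The deposited values are whole-number counts, not normalised, in a peak table and a table of windows around gene starts, and the authors had removed features with a mean count under 10. A mapping quality limit for these tables is not given in the sources used here. Counting without strand means that reads of overlapping antisense genes cannot be told apart, and intervals cover the spread between samples.

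Windows were rebuilt as the bases within 1 kb of any annotated start of a gene (GENCODE vM21, GRCm38). Counts of all 49366 windows, and separately of 36097 peaks, were fitted in R 4.3.3 with the quasi-likelihood test of edgeR 4.0.16 on group alone, after TMM scaling, and p-values were adjusted by Benjamini and Hochberg's method (threshold 0.05). Peak totals were 2588520 to 6871176. In simulations from these libraries with 200 changed windows, the test recovered 84.5% of changes of 1 and 9% of changes of 0.5 on the log2 scale. Levels are TMM-scaled CPM, divided by window length where genes are compared, with percentiles among all windows or peaks. Deviations of same-numbered replicates had r of 0.19, -0.12 and 0.09 in windows, inside the range of replicates of unlike number (-0.26 to 0.20). The numbers were not taken as pairs, although muscles of both groups came from contralateral limbs. The smallest chi-square between replicates was 1.95 per feature, so none counted as a duplicate.

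All 8 genes are named. From the satellite cell, Notch and paralog lists come the genes with the smallest p in each direction, the highest and lowest levels, and relatives of a member, though not every gene that meets this rule is reported here. Marker lists are named by level, and by p only under an unadjusted 0.05. Itga7, Des, Dag1, Fzd7, Jag2, Notch1, Notch2 and Rbpj were named after their values were seen. The genes and lists were chosen with earlier results of these data known. Other settings tried were DESeq2 1.42.0, the likelihood-ratio test, other scaling, filters on low and high counts, a replicate block, leaving out each sample, a flank of 10 kb and counts in peaks. Counts and the order per unshared kb, the composition criterion and the 9 gene pairs were chosen after seeing the data.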

Additional observations from a re-analysis of the deposited data

How the results depend on the processing

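None of the 8 windows and none of the 19 peaks was called under any alternative run, including the replicate block, under which 13 windows and 207 peaks of the whole tables were called, against 11 and 223. Whether same-numbered pools share animals is not given in the labels. Their deviations had r of 0.02, -0.09 and -0.14 in peaks. With 3 pools per group, such a check cannot settle whether animals are shared. Over all features, the likelihood-ratio test called 33 windows and 378 peaks, DESeq2 20 and 118, a mean count of at least 50 left 13 and 136, and leaving out a sample gave 4 to 157 windows (157 without LacZ-shRNA replicate 1) and 94 to 447 peaks (447 without LacZ-shRNA replicate 3). Without the highest 1% of windows 7 were called. DESeq2 gave no adjusted p for 38284 windows and 12597 peaks, 5 of the 8 windows and 5 of the 19 peaks among them. The Spry1 window dropped out at a mean count of 50. With 5 samples the order test cannot go below 0.0625. Per kb of unshared window, chosen after seeing the data, 3 of the 7 neighbour pairs held in all samples, against 5.

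The log2 fold change of the Calcr window ran from -0.43 to -0.27 (lowest adjusted p 0.473) and that of the Cdh15 promoter peak from 0.16 to 0.40 (0.188). Leaving out single samples, changes ran from -0.895 to -0.381 in the Spry1 window, -0.253 to -0.0079 in Hey1, -0.217 to -9.23e-05 in Pax7, 0.042 to 0.214 in Cdh15 and 0.116 to 0.254 in Vcam1, and from -0.384 to -0.136 in the Heyl exon peak, 0.236 to 0.455 in the Spry1 exon peak and -0.875 to -0.347 in the Calcr intron peak. The Heyl window turned to -0.000319 with RLE factors, -0.00453 at a mean count of 50, -0.000282 without the highest windows, and to -0.117, -0.0202, -0.0761 and -0.0116 when LacZ-shRNA 1, LacZ-shRNA 2, Yap-shRNA 2 or Yap-shRNA 3 was left out (all single samples left out, -0.117 to 0.169). The Pax3 window turned to -0.0614 without LacZ-shRNA 1 (likewise -0.0614 to 0.188). With library size alone, which moved the median of all peaks from -0.0026 to 0.137, 5 peaks turned: the distal (0.0128) and proximal (0.104) Pax7 peaks, the Spry1 start (0.0349), the internal Heyl start (0.0561) and the Hey1 promoter (0.0553). The proximal Pax7 peak also turned with the replicate block (0.000242) and when LacZ-shRNA 3 (0.206) or Yap-shRNA 3 (0.0468) was left out (likewise -0.131 to 0.206), the Heyl peak without LacZ-shRNA 3 (0.0080) or Yap-shRNA 1 (0.0129; likewise -0.232 to 0.0129), and the Hey1 peak without LacZ-shRNA 2 (0.0335; likewise -0.150 to 0.0335). The cause was not tested. Counted in overlapping peaks, levels per kb of window were 17.9 for Spry1, 26.6 for Cdh15, 3.63 for Heyl and 0 for Pax7, Pax3, Calcr and Vcam1. These CPM were scaled to the counts in peaks, whose totals are smaller than those in windows. Their size is therefore not on the scale of the window levels.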

Other observations

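The windows whose log2 CPM followed Pax7 most closely over the 6 samples were Gm29767 (Pearson r 0.994), Gm42663, Eid2b, Rrp36 and Hmgxb4 (0.991), of 32329 unshared windows with a mean of at least 50 counts. Over so few samples 611 of these windows had an r above 0.9, so the likeness is a description. Among the 8 genes the 28 pairwise correlations of log2 CPM over the 6 samples ran from -0.83 to 0.94 with a median of 0.24, and 20 were positive. Within a sample the 8 windows share its depth and scaling factor.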
